A study of Mus musculus with 6 samples.

Results

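The liver makes most of the plasma proteins of the complement and coagulation systems, and 36 genes for such proteins were followed in mouse liver 6 h after an injection of FGF15, FGF19 or vehicle. The members were taken by gene symbol: all probe sets paired with exactly 1 gene whose symbol was on the list. Of the 36 genes, 33 had a probe set of their own, out of 12393 genes with one on the array, and all 33 passed the filter on low signals. C3 and Cpb2 were listed with no probe set of their own and their expression was not analysed here, and C4b shared its probe set with C4a and is given separately. FGF15 is the mouse hormone that the ileum releases in response to bile acids, and FGF19 is its human counterpart. The mice were wild-type C57Bl/6 males that received vehicle, purified FGF15 or recombinant FGF19 into the jugular vein, were kept without food for the 6 h, and had their livers frozen; all groups therefore share the fast and the injection. Each group has 2 Affymetrix Mouse Genome 430A 2.0 arrays of whole liver RNA. Whether a group's 2 arrays stand for different mice is not in the labels. Each p-value thus weighs a difference against array-to-array spread alone, and that spread may be technical. The spread was estimated over all 6 arrays with the aid of other genes. The age of the mice and the doses were not given in the sources used here.

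Complement is a set of plasma proteases and binding proteins. The classical and lectin routes recognise antibody or microbial sugars and cleave C4 and C2, the alternative route uses factor B, and all routes meet at C3. Cleavage of C5 then starts the terminal pathway, in which C5b, C6, C7, C8 and C9 assemble into the membrane attack complex. Coagulation is a second protease cascade that ends with thrombin and fibrin; it is held in check by protein C, protein S, antithrombin and heparin cofactor II, and plasmin dissolves the clot. Hepatocytes secrete nearly all of these proteins, while resident macrophages (Kupffer cells) contribute C1q.

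Signals are the deposited intensities on a linear scale, and differences are on the log2(signal + 32) scale with limma's standard error. A gene is said to fall or rise at an adjusted p under 0.05. The mean signal without the top and bottom 2% of probe sets was about 200.1 for each array. The values had been scaled to that common level, so it does not compare the arrays. Median signals were 61.4 and 59.4 with vehicle, 55.2 and 51.3 with FGF15, and 50.8 and 52.2 with FGF19. FGF19 replicate 1 stood apart: its ratio of 3' to 5' signal of beta-actin, a sign of RNA integrity, was 1.63 against 1.30 to 1.39 on the other arrays. All 10 members with a mean vehicle signal above 5000 were lower on it than on FGF19 replicate 2, by a median of 0.20 on the log2 scale. The same 10 were lower on FGF15 replicate 1 than on replicate 2 by a median of 0.068, and 5 of the 10 were lower on vehicle replicate 1 than on replicate 2. The 8 measured hepatocyte markers had summed signals of 82600 to 83765 on the vehicle arrays, 73786 and 79041 with FGF15, and 64530 and 81713 with FGF19. Calls that rest on FGF19 replicate 1 are given without it below, and the part of RNA integrity in them was not tested.

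After FGF15, 12 of the 33 measured genes fell and none rose, against 6.64% of all 9692 genes tested that fell and 5.87% that rose. After FGF19, 17 of the 33 fell and none rose, against 7.26% and 6.27% of all genes. A filter at the 50th percentile kept 6668 genes, of which 639 were called lower after FGF15 and 721 after FGF19. Of the members, 12 and 18 were. In the reported fit the members' standard errors lay between 0.060 (F12) and 0.11 (F7), below the median of 0.13 over all genes. A difference of a given size is thus called more readily in a member, so the called shares do not compare like with like. At an unadjusted p under 0.05 in the same limma fit, no member was higher with either hormone, 15 were lower with FGF15 and 21 with FGF19. The share of all genes at that unadjusted threshold was not counted, here or below, so these counts have no background beside them. The terminal complement pathway had the most negative median of the 8 roles, with C8b, C9 and Hc (which encodes C5) lower by 1.65-fold to 1.86-fold and only C8g of its 6 genes not called. Of 6 coagulation factor genes none fell with FGF15 and 2 fell with FGF19. The median difference over the 33 genes was -0.17 with FGF15 and -0.25 with FGF19, where that over all genes was -0.047 and -0.072. It was -0.12 and -0.24 over the 8 measured hepatocyte markers, and -0.19 and -0.36 over 20 genes of acute phase proteins, given below. A median below that of all genes is thus not particular to the members. A difference below -0.5 was found for 7 of the 33 genes (21.2%) with FGF15 and 6 (18.2%) with FGF19, against 5.60% and 5.99% of all genes. The arrays of the hormone and vehicle groups did not overlap for any of the 12 and 17 genes called. They also did not overlap for 16 of the 21 members not called with FGF15 and 9 of the 16 not called with FGF19. Lack of overlap therefore does not set the called genes apart. The share of all genes without overlap was not counted, so lack of overlap, here or below, has no background beside it. Without vehicle replicate 1, the median over the members was -0.17 with FGF15 and -0.25 with FGF19, against -0.037 and -0.059 over all genes. Without vehicle replicate 2 it was -0.17 and -0.23, against -0.056 and -0.079. Fewer members, and fewer of all genes, were called in each case. Both comparisons use the same vehicle arrays, so they are set side by side and are not independent of each other.

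**Figure D1:**
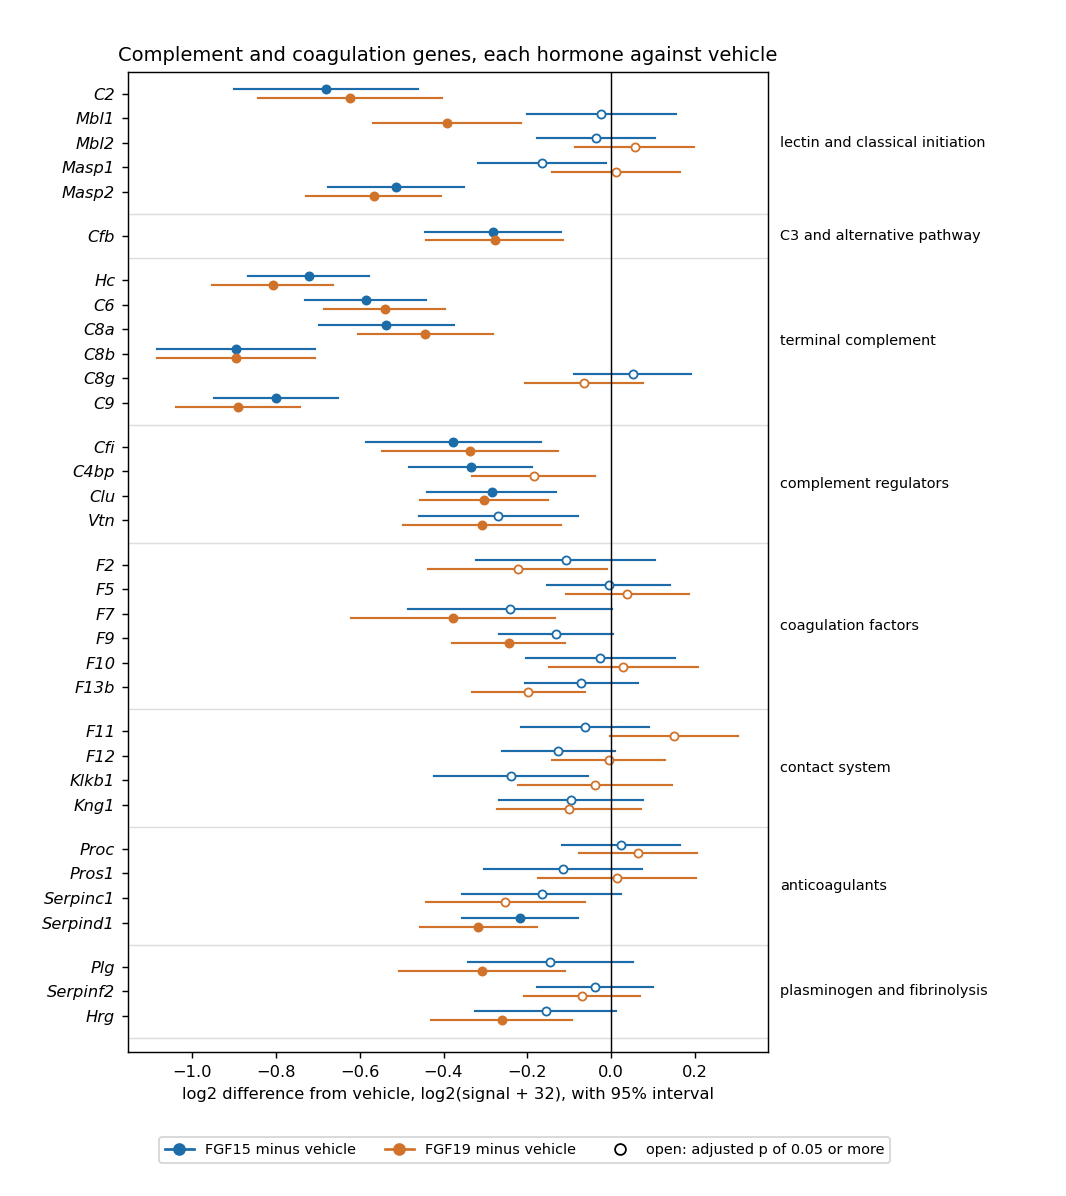
Log2 difference from vehicle of 33 complement and coagulation genes after FGF15 (blue) and FGF19 (orange), on the log2(signal + 32) scale with limma's 95% interval, 2 arrays per group, ordered by role; filled points passed the test at an adjusted p under 0.05. The filled points gather in the terminal complement genes, where 5 of 6 fell with each hormone, while C8g lies at 0.051 and -0.065.

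**Figure D2:**
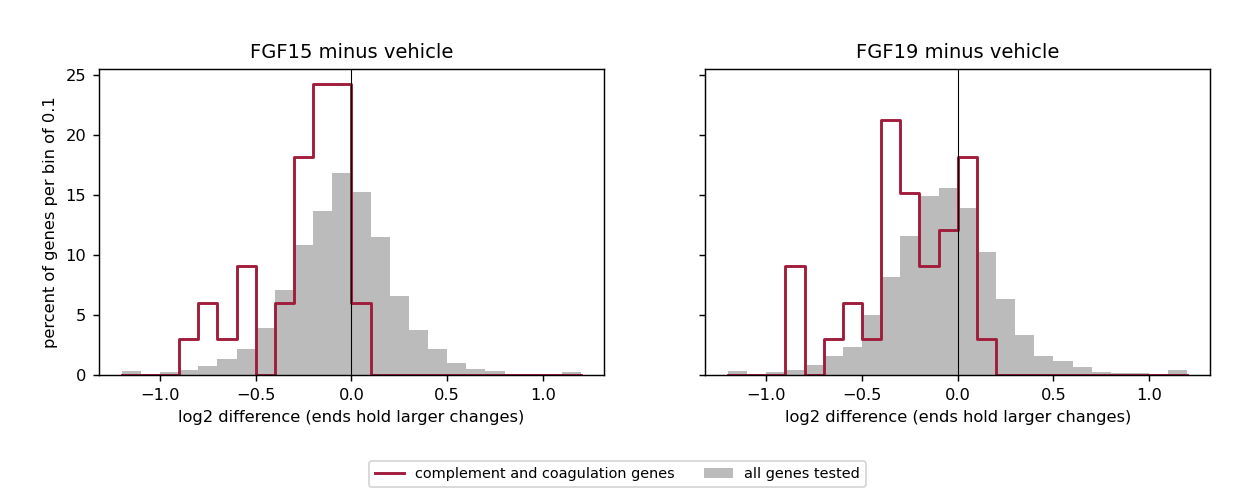
Distribution of the log2 difference from vehicle for the 33 complement and coagulation genes (red outline) and for all 9692 genes tested (grey), in bins of 0.1, as a percent of each set. With both hormones the outline is shifted to the left of the grey bars, with medians of -0.17 and -0.25 against -0.047 and -0.072. Hepatocyte markers and acute phase protein genes, not drawn, had medians of -0.12 and -0.24, and of -0.19 and -0.36.

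Centring each array on its own median log2 value shifted the median of all genes from -0.047 to 0.070 with FGF15 and from -0.072 to 0.074 with FGF19. The array medians themselves were 6.55 and 6.51 with vehicle, 6.45 and 6.38 with FGF15, and 6.37 and 6.40 with FGF19. The medians over the members became -0.049 and -0.11, and 7 genes fell with each hormone in place of 12 and 17. These were C2, Masp2, Hc, C6, C8a, C8b and C9. The same 7 genes, and no other member, also passed the test with both hormones under every one of the 17 alternative settings tried. Over all genes the centred split was 1006 higher and 357 lower with FGF15, against 569 and 644 as deposited, and 1216 higher and 330 lower with FGF19, against 608 and 704. F11, which encodes coagulation factor XI, was then the 1 member called higher, with FGF19 (0.30, adjusted p = 0.025).

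The routes that start complement were represented by 5 measured genes, of which 2 fell with FGF15 and 3 with FGF19. C2 encodes the protease that, joined to C4b, forms the C3 convertase of the classical and lectin routes. Its signal was 683 and 629.8 with vehicle, 373 and 423 with FGF15, and 453 and 379 with FGF19. The treated arrays all lay below both vehicle arrays, at -0.68 ± 0.098 with FGF15 (adjusted p = 0.0016) and -0.62 ± 0.098 with FGF19 (adjusted p = 0.0025). Masp2, the mannose-binding lectin-associated protease that cleaves C4 and C2, read 1371 and 1225 with vehicle, 879 and 918 with FGF15, and 856 and 873 with FGF19. It fell by 0.51 ± 0.072 with FGF15 (adjusted p = 0.0013) and by 0.57 ± 0.072 with FGF19 (adjusted p = 0.00073). A dimmer probe set of Masp2 had -0.34 and -0.31 and was not called when all probe sets were tested singly (adjusted p = 0.11 and 0.13). The lectin pathway's other protease, Masp1, has 5 probe sets that differed among themselves. Its brightest one gave -0.17 and 0.011 and was not called, while another, whose name marks it as open to related transcripts, gave -0.46 and -0.48 and fell with both hormones (adjusted p = 0.014 and 0.011). The remaining 3 probe sets of Masp1 were not called.

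The mannose-binding lectins Mbl1 and Mbl2 are the sugar-recognising proteins to which these proteases bind. Mbl1 read 1425 and 1443 with vehicle, 1523 and 1307 with FGF15, and 1116 and 1056 with FGF19. The FGF15 arrays lay on either side of the vehicle arrays, and the FGF19 arrays lay below all the others. With FGF15 the difference was -0.023 ± 0.079 (adjusted p = 0.89), and with FGF19 it was -0.39 ± 0.079 (adjusted p = 0.0096). Mbl1 was the only member that passed the test of FGF19 against FGF15, at -0.37 ± 0.079 (95% interval -0.55 to -0.19, adjusted p = 0.029); 1.89% of all genes fell and 2.40% rose in that comparison. That call was lost without any one of vehicle replicate 1, vehicle replicate 2, FGF15 replicate 1, FGF19 replicate 1 or FGF19 replicate 2, with adjusted p of 0.060, 0.061, 0.18, 0.069 and 0.12. Against vehicle, the fall with FGF19 was not called without vehicle replicate 1 (adjusted p = 0.064), vehicle replicate 2 (0.068) or FGF19 replicate 2 (0.052). Mbl2 stayed within a narrower span, at 2640.2 and 2547 with vehicle, 2597 and 2460.1 with FGF15, and 2676 and 2717 with FGF19. It was not called, with 95% intervals of -0.18 to 0.11 with FGF15 and -0.086 to 0.20 with FGF19.

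The sequences just before the RefSeq starts of Mbl1 (chr14:41151206-41151455, plus strand) and Mbl2 (chr19:30232678-30232905, plus strand) are shown because these related genes did not give the same call with FGF19; both are in build GRCm38.p6, and capitals mark the longest run they share, 13 bases, at -23 to -11 in Mbl1 and at -57 to -45 in Mbl2.
Mbl1: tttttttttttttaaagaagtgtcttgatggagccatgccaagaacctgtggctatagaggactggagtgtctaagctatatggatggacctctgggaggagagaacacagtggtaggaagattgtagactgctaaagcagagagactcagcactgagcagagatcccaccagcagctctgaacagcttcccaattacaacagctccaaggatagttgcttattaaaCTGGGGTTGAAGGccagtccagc
Mbl2: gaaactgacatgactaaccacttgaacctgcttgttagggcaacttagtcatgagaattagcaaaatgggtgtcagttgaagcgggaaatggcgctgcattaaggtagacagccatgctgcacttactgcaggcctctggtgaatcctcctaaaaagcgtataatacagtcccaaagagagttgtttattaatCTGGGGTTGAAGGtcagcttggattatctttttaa

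C4, the protein that C1s and Masp2 cleave, was read by a probe set paired with both C4a and C4b, which cannot be told apart on it. It read 5637 and 5511 with vehicle, 4244 and 4384 with FGF15, and 3864 and 4500.1 with FGF19. In the fit of all probe sets it fell by 0.37 ± 0.081 with FGF15 (adjusted p = 0.018) and by 0.42 ± 0.081 with FGF19 (adjusted p = 0.010). Cfb encodes factor B, the protease of the alternative route, and lies next to C2 on chromosome 17 in RefSeq's gene order. Its signals were 3165 and 2869 with vehicle, 2375 and 2575 with FGF15, and 2442 and 2519 with FGF19. Each treated array lay below both vehicle arrays, and the differences were -0.28 ± 0.073 with both FGF15 (adjusted p = 0.032) and FGF19 (adjusted p = 0.033). Cfb's call with FGF15 was lost without either vehicle array (adjusted p = 0.26 for replicate 1 and 0.064 for replicate 2) or either FGF15 array (0.17 and 0.062). With FGF19 it was lost without either vehicle array (0.26 and 0.062) or either FGF19 array (0.094 and 0.053).

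The terminal pathway came next, with medians over its 6 measured genes of -0.65 with FGF15 and -0.67 with FGF19, and 5 of the 6 genes fell with each hormone. Hc encodes C5, whose cleavage starts the pathway. It read 5375 and 5496 with vehicle, 3278 and 3286 with FGF15, and 2995 and 3189.5 with FGF19. The treated arrays were all well below the vehicle arrays, by 1.65-fold with FGF15 (-0.72 ± 0.064, adjusted p = 7.97e-05) and 1.75-fold with FGF19 (-0.81 ± 0.064, adjusted p = 3.09e-05). C6, which binds C5b and begins the assembly, read 1551 and 1552 with vehicle, 1059 and 988 with FGF15, and 1045 and 1069.8 with FGF19. All treated arrays were below the vehicle arrays, with differences of -0.59 ± 0.065 with FGF15 (adjusted p = 0.00030) and -0.54 ± 0.065 with FGF19 (adjusted p = 0.00048). C9 is the subunit that polymerises into the membrane pore. Its signal was 6049.8 and 5877 with vehicle, 3365 and 3459.6 with FGF15, and 3093 and 3318 with FGF19. The falls were 1.74-fold with FGF15 (-0.80 ± 0.066, adjusted p = 4.80e-05) and 1.85-fold with FGF19 (-0.89 ± 0.066, adjusted p = 2.13e-05), and no treated array came near the vehicle arrays.

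C8, the subunit that first enters the membrane, is made of 3 chains, and their genes did not give the same call. C8b, the beta chain, read 2049.6 and 2101 with vehicle, 1009 and 1201 with FGF15, and 1066 and 1138 with FGF19. It had the most negative difference of all members, at -0.90 ± 0.084 with FGF15 (1.86-fold, adjusted p = 0.00012) and -0.89 ± 0.084 with FGF19 (1.86-fold, adjusted p = 0.00010). C8a, the alpha chain, read 4547 and 4903 with vehicle, 3246 and 3246 with FGF15, and 3631 and 3303 with FGF19. It fell by 0.54 ± 0.072 with FGF15 (1.45-fold, adjusted p = 0.0010) and by 0.44 ± 0.072 with FGF19 (1.36-fold, adjusted p = 0.0030). Its adjusted p with FGF19 reached 0.049 at its highest over the 17 alternatives. The gamma chain is a lipocalin encoded by C8g, which read 2974 and 3018 with vehicle, 3023 and 3191 with FGF15, and 2838 and 2886 with FGF19. The FGF15 arrays were slightly above and the FGF19 arrays slightly below the vehicle arrays. Neither difference was called: 0.051 with FGF15 (95% interval -0.089 to 0.19, adjusted p = 0.66) and -0.065 with FGF19 (-0.21 to 0.075, adjusted p = 0.54). C8g was not called under any of the 17 alternatives, and after centring its differences were 0.17 and 0.081. C8a and C8b are neighbours on chromosome 4 in RefSeq's gene order, and C8g lies on chromosome 2. Whether C8g differs from the other chains in its change was not tested.

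**Figure D3:**
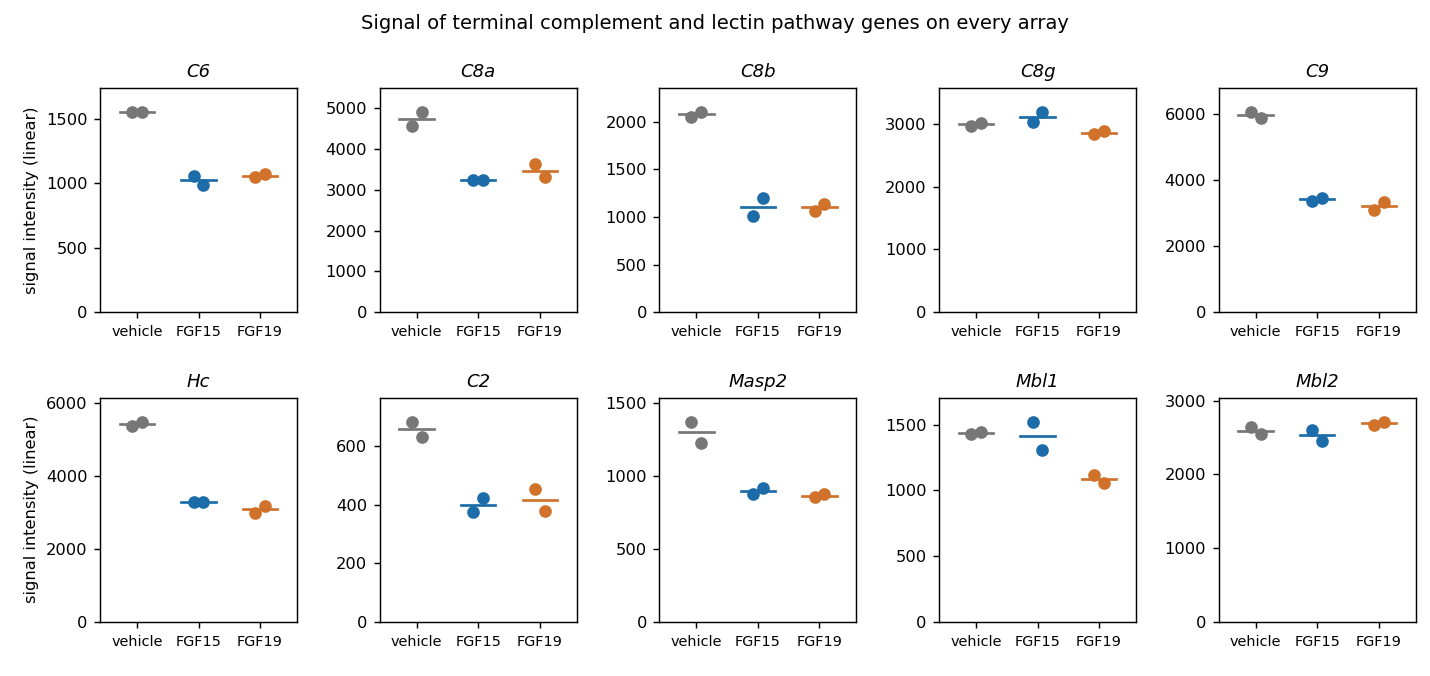
Signal intensity on a linear scale, starting at 0, of 10 complement genes on every array of the vehicle, FGF15 and FGF19 groups; points are arrays and lines are means of 2 arrays, and each panel has its own scale. C6, C8a, C8b, C9, Hc, C2 and Masp2 are lower on all treated arrays, Mbl1 with FGF19, and C8g and Mbl2 stay near their vehicle signals.

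Promoter sequence is shown for C6, C9 and the chains of C8, because these genes of the terminal pathway fell together except C8g, which was not called. Each is the part of the 250 bases before the RefSeq start that lies outside the gene's annotated span, in build GRCm38.p6, written 5' to 3' on the gene's own strand. They are C6 (chr15:4726960-4727066, plus strand), C8a (chr4:104876488-104876648, minus strand), C8b (chr4:104766067-104766316, plus strand), C8g (chr2:25501778-25501969, minus strand) and C9 (chr15:6445096-6445345, plus strand). Capitals mark letters that match a searched motif on either strand, and C6 and C8g have none.
C6: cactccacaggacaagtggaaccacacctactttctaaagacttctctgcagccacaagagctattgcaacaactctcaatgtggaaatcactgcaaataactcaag
C8a: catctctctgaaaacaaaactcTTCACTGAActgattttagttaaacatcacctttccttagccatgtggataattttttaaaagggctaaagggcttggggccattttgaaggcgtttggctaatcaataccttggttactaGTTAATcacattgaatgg
C8b: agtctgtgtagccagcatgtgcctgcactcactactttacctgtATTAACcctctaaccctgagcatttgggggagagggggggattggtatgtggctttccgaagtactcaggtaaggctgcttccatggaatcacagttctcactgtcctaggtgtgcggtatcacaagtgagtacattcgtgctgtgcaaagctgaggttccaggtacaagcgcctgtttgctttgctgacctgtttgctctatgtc
C8g: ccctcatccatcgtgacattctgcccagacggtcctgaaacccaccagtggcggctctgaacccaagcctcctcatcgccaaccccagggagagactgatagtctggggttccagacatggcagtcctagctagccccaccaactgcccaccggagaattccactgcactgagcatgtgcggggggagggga
C9: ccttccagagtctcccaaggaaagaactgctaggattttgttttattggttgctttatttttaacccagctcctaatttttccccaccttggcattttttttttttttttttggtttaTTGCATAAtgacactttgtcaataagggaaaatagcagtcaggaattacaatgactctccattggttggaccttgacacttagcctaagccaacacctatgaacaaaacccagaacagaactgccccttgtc

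The motifs searched stand for factors that act in hepatocytes: GTTAAT, a half-site of HNF1; CAAAGTCCA, a site of HNF4; TTGCNNAA, a C/EBP site; and TTCNNNGAA, a STAT site, each on both strands. RefSeq entries were matched for 27 of the 36 genes, C3 among them, with 28 starts. The HNF1 half-site was in 6 of these 28 windows (21.4%) and in 6.43% of all 32851 promoter windows of the same length. Among the 7 genes called under every setting, 6 had an entry, and 3 of those held the half-site: C8a at -107 to -102, C8b at -206 to -201, and Hc at -74 to -69. The C/EBP site was in 6 of 28 windows against 9.56% of all, among them C9 at -132 to -125. The STAT site was in 4 of 28 windows against 7.02% of all, among them C8a at -228 to -220 and Masp2 at -53 to -45. HNF4's letters were in none of the members' windows and in 0.384% of all. These matches describe letters in the windows only.

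Of the 4 genes for regulators of complement, 3 fell with each hormone. Cfi encodes factor I, the protease that inactivates C3b and C4b. It read 5500.4 and 5251 with vehicle, 3998 and 4273 with FGF15, and 3834 and 4703 with FGF19. All treated arrays were below the vehicle arrays, by 0.38 ± 0.094 with FGF15 (adjusted p = 0.028) and 0.34 ± 0.094 with FGF19 (adjusted p = 0.041). C4bp, the C4b-binding protein that serves factor I as a cofactor, read 4464 and 4483 with vehicle, 3560.5 and 3517 with FGF15, and 4085 and 3783 with FGF19. It fell by 0.34 ± 0.066 with FGF15 (adjusted p = 0.0088). With FGF19 its arrays were also below the vehicle arrays, at -0.19 ± 0.066 (adjusted p = 0.096), and the difference between the hormones was 0.15 (95% interval 0.0036 to 0.30, adjusted p = 0.29).

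Clusterin (Clu) and vitronectin (Vtn) bind the forming attack complex and keep it out of membranes. Clu read 8616 and 8742 with vehicle, 6928 and 7312 with FGF15, and 6849 and 7209 with FGF19. It fell by 0.28 ± 0.069 with FGF15 (adjusted p = 0.024) and by 0.30 ± 0.069 with FGF19 (adjusted p = 0.017). Its 4 probe sets ranged from -0.11 to -0.43 with FGF15 and from -0.26 to -0.48 with FGF19, and the one used can also bind related transcripts. When all probe sets were tested singly, the dimmest of Clu was called with neither hormone (adjusted p = 0.21 and 0.081). Another was not called with FGF15 (adjusted p = 0.40) and fell with FGF19 (adjusted p = 0.033). Vtn read 8132 and 8552 with vehicle, 6742 and 7094 with FGF15, and 6225 and 7265 with FGF19. It fell by 0.31 ± 0.085 with FGF19 (adjusted p = 0.038), while the FGF15 difference of -0.27 ± 0.085, with no array overlapping, was not called (adjusted p = 0.068). The calls of Cfi, C4bp and Clu with FGF15 were lost without either vehicle array (adjusted p 0.083 to 0.17) or without FGF15 replicate 2 (0.070 to 0.089), and those of Cfi and Clu also without FGF15 replicate 1 (0.14 and 0.16). With FGF19, Cfi, Clu and Vtn were not called without either vehicle array (0.12 to 0.22), and Cfi and Vtn were not called without FGF19 replicate 1 (0.11 and 0.079) or without either FGF15 array (0.056 to 0.064). Without FGF19 replicate 1, C4bp was called with FGF19 (-0.24, adjusted p = 0.030), and without either FGF19 array Vtn was called with FGF15 (adjusted p = 0.0077 without replicate 1).

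Among 6 coagulation factor genes, none fell with FGF15, for which the median was -0.090, and 2 fell with FGF19, for which it was -0.21. F7 encodes factor VII, which starts coagulation with tissue factor. It read 805 and 753 with vehicle, 729 and 585 with FGF15, and 643 and 544 with FGF19. The FGF19 arrays were below both vehicle arrays (-0.38 ± 0.11, adjusted p = 0.047), and the FGF15 arrays were too, without a call (-0.24 ± 0.11, adjusted p = 0.19). F9, the factor IX gene mutated in haemophilia B, read 1952 and 1988 with vehicle, 1769 and 1822 with FGF15, and 1671 and 1645 with FGF19. It fell by 0.24 ± 0.061 with FGF19 (adjusted p = 0.026) and stood at -0.13 ± 0.061 with FGF15 (adjusted p = 0.20). Both FGF19 calls were lost without vehicle replicate 1 (adjusted p 0.13 and 0.22), vehicle replicate 2 (0.11 and 0.15) or FGF19 replicate 2 (0.056 and 0.25). The genes of prothrombin (F2), factor V (F5), factor X (F10) and the B subunit of factor XIII (F13b) were not called, with differences of -0.11 to -0.0061 with FGF15 and -0.22 to 0.038 with FGF19. The nearest to a call was F13b with FGF19, at -0.20 (adjusted p = 0.057). F2 read 5507 on FGF19 replicate 1 and 6826 on FGF19 replicate 2 against 7187 and 7142 with vehicle, and it was called with FGF19 only when replicate 2 was left out.

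No gene of the contact system was called with either hormone in the limma fit; at an unadjusted p under 0.05, 1 of its 4 genes was lower with FGF15 and none was changed with FGF19. That gene was Klkb1, which encodes plasma prekallikrein and is the neighbour of F11. Klkb1 read 1323 and 1289 with vehicle, 1019 and 1191 with FGF15, and 1223 and 1321 with FGF19. The FGF15 arrays were below the vehicle arrays (-0.24 ± 0.082, adjusted p = 0.091), and the FGF19 arrays overlapped them (-0.038 ± 0.082, adjusted p = 0.80). Klkb1 was called with FGF15 when FGF15 replicate 2 was left out, and after quantile normalization. F11, F12 (factor XII) and Kng1 (high molecular weight kininogen) had -0.13 to -0.062 with FGF15 and -0.10 to 0.15 with FGF19, the highest being F11.

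Serpind1, which encodes the thrombin inhibitor heparin cofactor II, was the 1 anticoagulant gene of 4 that fell. It read 2656 and 2698 with vehicle, 2321 and 2274 with FGF15, and 2199 and 2087 with FGF19. No treated array overlapped the vehicle arrays, and the falls were 0.22 ± 0.062 with FGF15 (adjusted p = 0.049) and 0.32 ± 0.062 with FGF19 (adjusted p = 0.0084). The FGF15 call was lost without either vehicle array (adjusted p = 0.19 and 0.22) or either FGF15 array (0.13 and 0.20), and the FGF19 call was lost without either vehicle array (0.068 and 0.078). Serpinc1, the gene of antithrombin, stood at -0.17 with FGF15 and -0.25 with FGF19 (adjusted p = 0.25 and 0.081). Proc and Pros1, which encode protein C and its cofactor protein S, had 0.024 and -0.12 with FGF15 and 0.064 and 0.013 with FGF19, and were not called.

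Of 3 genes of fibrinolysis, 2 fell with FGF19 and none with FGF15. Plg, the plasminogen gene, read 8202 and 8205 with vehicle, 7247 and 7586 with FGF15, and 6043 and 7248 with FGF19. The FGF19 difference was -0.31 ± 0.088 (adjusted p = 0.046) and the FGF15 difference -0.15 ± 0.088 (adjusted p = 0.34). Hrg encodes the histidine-rich glycoprotein, which binds plasminogen and heparin, and its probe set can bind related transcripts. It read 5323 and 5250.2 with vehicle, 4546 and 4941 with FGF15, and 4185 and 4636 with FGF19. With FGF19 it fell by 0.26 ± 0.075 (adjusted p = 0.047), and with FGF15 it stood at -0.16 ± 0.075 (adjusted p = 0.22). Without FGF19 replicate 1, on which both genes were lowest, the FGF19 differences were -0.18 for Plg and -0.19 for Hrg and neither was called (adjusted p = 0.081 and 0.12). Neither was called without either vehicle array (adjusted p 0.17 to 0.23) or either FGF15 array (0.062 to 0.073). Serpinf2, the gene of alpha2-antiplasmin, the main plasmin inhibitor, had -0.039 with FGF15 and -0.070 with FGF19 and was not called.

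**Figure D4:**
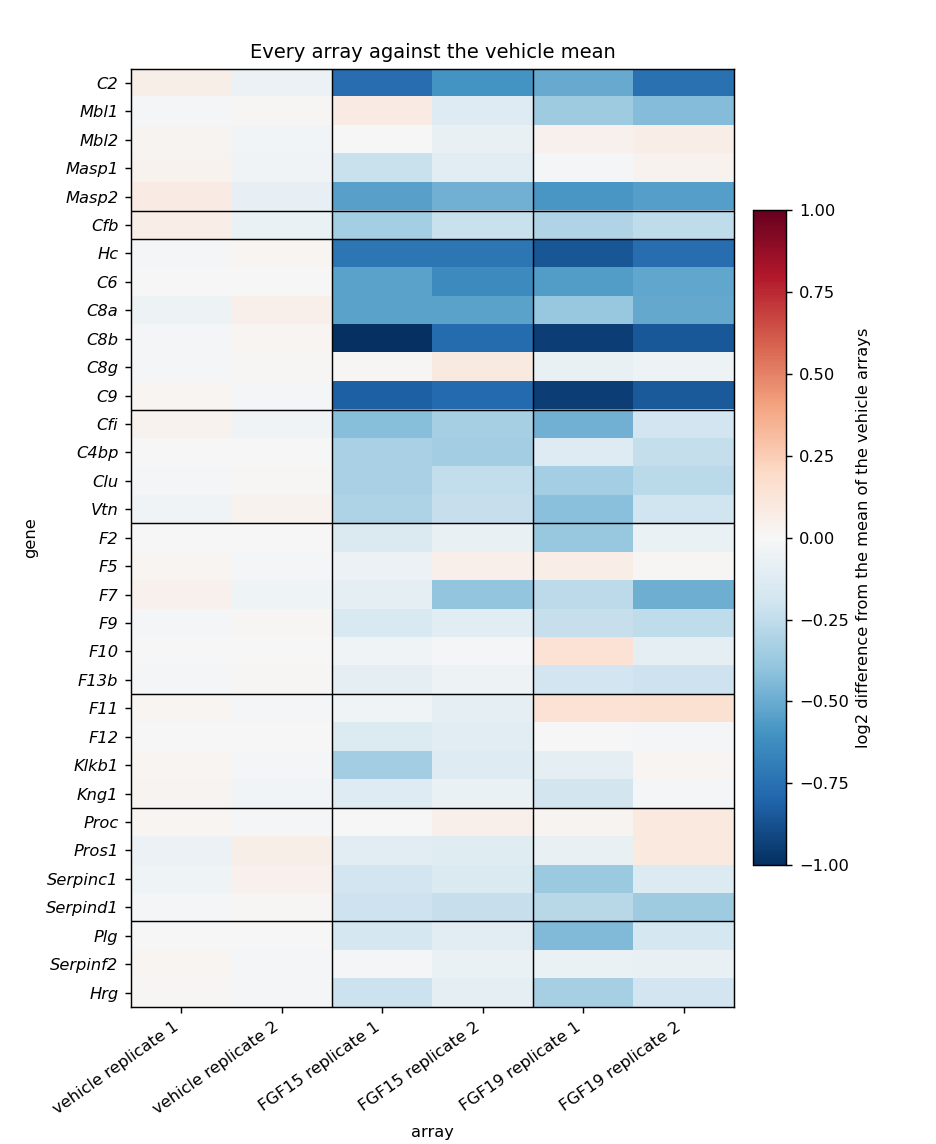
Log2 difference of every array from the mean of the vehicle arrays, on the log2(signal + 32) scale, for the 33 genes in the order of their roles; blue is lower and red is higher. The terminal complement genes other than C8g are blue on all 4 treated arrays, and the bright genes F2, Serpinc1 and Plg are lowest on FGF19 replicate 1.

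Set against each other, the hormones gave close values for most members. In FGF19 minus FGF15, no member rose and 1 fell (Mbl1), and at an unadjusted p under 0.05 in the same limma fit 4 were higher and 1 was lower. All genes were not counted at that unadjusted threshold. The median over the 33 genes was -0.0041, against -0.023 for all genes. The interval of the difference bounds how far the terminal genes can diverge: -0.19 to 0.19 for C8b, -0.23 to 0.058 for Hc, -0.24 to 0.058 for C9, -0.099 to 0.19 for C6 and -0.069 to 0.25 for C8a. For C8g it was -0.26 to 0.024, and its FGF19 arrays lay below its FGF15 arrays without a call (adjusted p = 0.41). The genes called with FGF19 and not with FGF15 besides Mbl1 were Vtn, F7, F9, Plg and Hrg, and the 1 called with FGF15 alone was C4bp; none of these 6 passed the test of the hormones' difference. Without the doses, equal exposure to the hormones cannot be assumed.

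**Figure D5:**
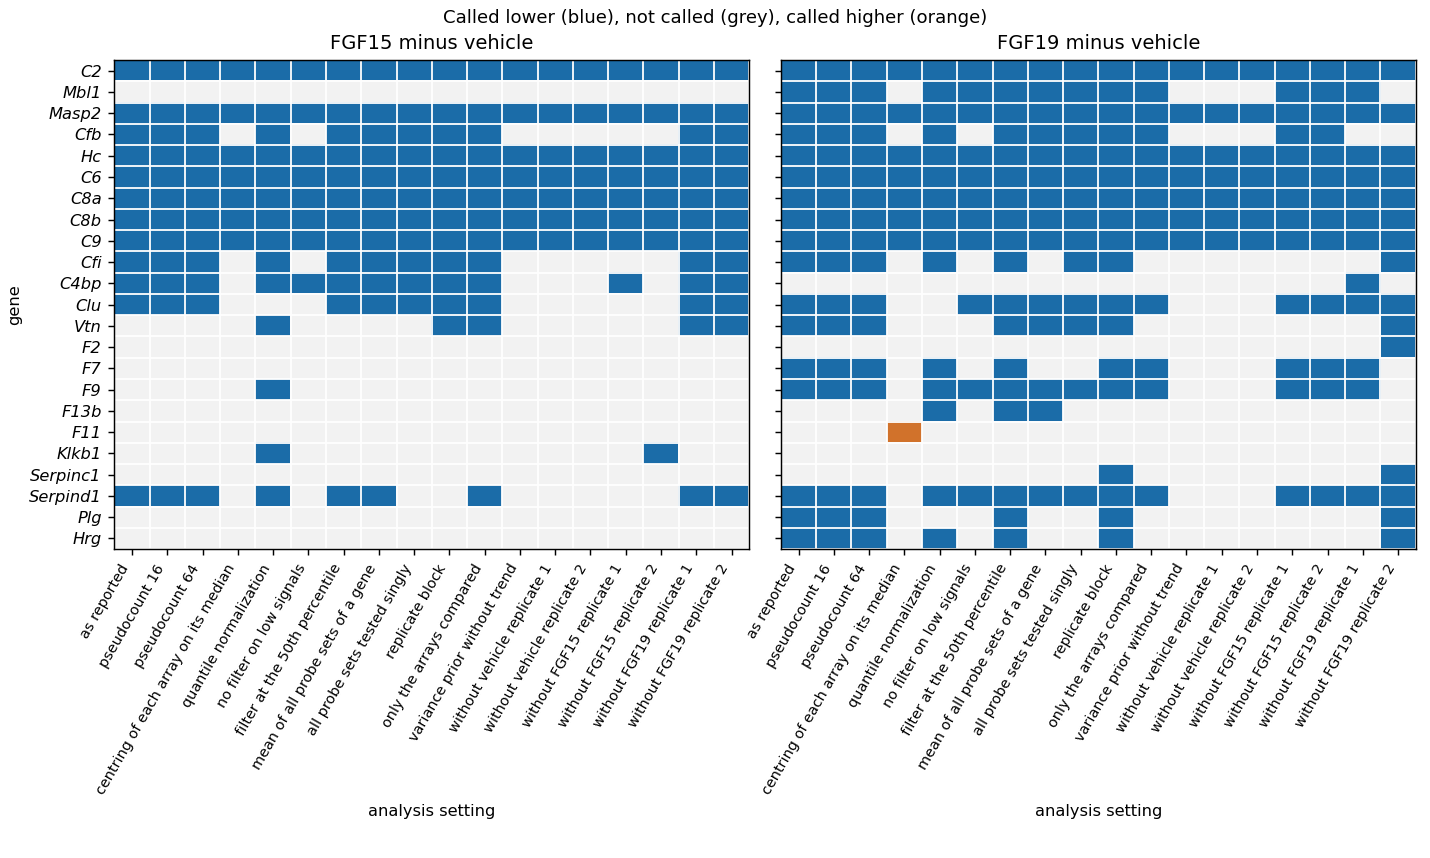
Calls at an adjusted p under 0.05 for each of the 23 members called in at least 1 setting (vertical axis) under the reported analysis and 17 alternatives (horizontal axis); blue is called lower, grey not called and orange called higher. The bars of C2, Masp2, Hc, C6, C8a, C8b and C9 are unbroken with both hormones, and F11 after centring is the only orange cell.

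Other genes of complement were followed on a list of 24, of which 16 were measured; 7 fell with FGF15, 8 fell with FGF19 and none rose, with none higher at an unadjusted p under 0.05 in the limma fit. C1qa and C1qc encode chains of C1q, the recognition protein of the classical route. C1qa fell by 0.85 ± 0.088 with FGF15 and by 0.97 ± 0.088 with FGF19, and C1qc by 0.74 ± 0.070 and 0.98 ± 0.070. Vsig4, a macrophage receptor for C3 fragments, fell by 0.86 ± 0.089 and 1.14 ± 0.089, and Fcna, the recognition lectin ficolin A, by 0.69 ± 0.073 and 0.60 ± 0.073. C1qb, C1ra and Cfp also fell with both hormones and C1s1 with FGF19; they were named after their values were seen. Cfp was not called with FGF15 without vehicle replicate 2 or FGF15 replicate 1 (adjusted p = 0.14 and 0.10), nor with FGF19 without vehicle replicate 2 or FGF19 replicate 1 (0.12 and 0.13), and C1s1 was not called without either vehicle array (0.071 and 0.091). C1qa, C1qb, C1qc and Vsig4 also stand on the list of Kupffer cell and macrophage markers, of which 10 of 11 measured fell with FGF15 and 9 of 11 with FGF19. The summed signal of those 11 markers was 6525 and 6427 with vehicle, 3484 and 3608 with FGF15, and 3534 and 3499 with FGF19. Clec4f, a marker of Kupffer cells, fell by 0.78 and 1.00 and was still measured on every array. In whole liver, fewer cells of a type and less RNA per cell cannot be told apart, and the part of the macrophage markers in the members' differences was not tested. For the hepatocyte markers, 1 of 8 fell with FGF15 (Tat) and none with FGF19, where 5 of 8 were lower at an unadjusted p under 0.05; their medians were -0.12 and -0.24.

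A list of 25 other coagulation genes had 22 measured, of which 3 rose and 1 fell with FGF15, and none rose and 2 fell with FGF19. The fibrinogen genes Fga, Fgb and Fgg were not called, with -0.16, -0.063 and -0.16 with FGF15 and -0.36, -0.20 and -0.36 with FGF19 (adjusted p of 0.060, 0.25 and 0.062). Without FGF19 replicate 2 the differences with FGF19 were -0.56, -0.38 and -0.57, which rest on FGF19 replicate 1 alone, the array with the highest beta-actin ratio. Fga read 8683 on FGF19 replicate 1 and 11382 on replicate 2, against 13023 and 12585 with vehicle. Fgb read 10065 and 12850 against 13160 and 13050, and Fgg 7138 and 9492 against 10669 and 10547. Mcfd2 and Lman1 encode the cargo receptor that carries factors V and VIII out of the endoplasmic reticulum. Mcfd2 rose by 0.42 ± 0.062 with FGF15 (adjusted p = 0.0017) and stood at 0.15 with FGF19, and Lman1 rose by 0.23 ± 0.063 with FGF15 (adjusted p = 0.040) and stood at 0.012 with FGF19. Serpina10, the gene of the protein Z-dependent protease inhibitor, rose by 0.43 ± 0.071 with FGF15 (adjusted p = 0.0036) and stood at -0.0078 with FGF19. Proz, the gene of protein Z itself, fell by 0.36 ± 0.093 with FGF19 (adjusted p = 0.030). Thbd, the thrombomodulin gene of endothelium, fell by 0.96 ± 0.11 with FGF15 (adjusted p = 0.00051) and by 0.43 ± 0.11 with FGF19 (adjusted p = 0.035). Of 9 measured endothelial markers, 1 fell with FGF15 (Lyve1) and none with FGF19, with 2 lower at an unadjusted p under 0.05 in each limma comparison. Without 1 array, Lman1 lost its call in each of 4 cases (adjusted p 0.076 to 0.19), Serpina10 lost it without vehicle replicate 2 (0.059), Proz without either vehicle array or FGF19 replicate 2 (0.10 to 0.15), and Thbd lost the FGF19 call without any of the vehicle or FGF19 arrays (0.091 to 0.17).

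Transcription factors and signalling genes known to act on hepatocyte secretory genes did not all move alike with the hormones. Of 20 measured, 4 rose and 3 fell with FGF15, and 4 rose and 5 fell with FGF19. Socs3, a feedback inhibitor of STAT3 signalling, rose by 0.63 ± 0.10 with FGF15 (adjusted p = 0.0028) and by 0.61 ± 0.10 with FGF19 (adjusted p = 0.0032). Stat3 itself stood at 0.19 and 0.24 (adjusted p = 0.14 and 0.059), and Hnf4a at -0.20 and 0.026 (adjusted p = 0.22 and 0.89). Nr1h4, the bile acid receptor FXR, fell by 0.29 ± 0.076 with FGF15 (adjusted p = 0.035) and by 0.87 ± 0.076 with FGF19 (adjusted p = 6.2e-05). Its FGF15 call was lost without any one of the vehicle or FGF15 arrays. Dbp fell by 1.54 ± 0.078 with FGF19 (adjusted p = 1.8e-06) and stood at -0.096 with FGF15 (adjusted p = 0.49). Of the 4 C/EBP genes listed, 3 had opposite signs with the hormones: Cebpb was -0.41 with FGF15 and 0.30 with FGF19, and Cebpd was -0.35 and 0.93, each past the test, whereas Cebpa was 0.28 and -0.59, also past the test. Cebpg, the fourth, was 0.25 and 0.030 and was not called (adjusted p = 0.11 and 0.87). With FGF15, Cebpa was not called without any one of the vehicle or FGF15 arrays (adjusted p 0.051 to 0.14), nor Cebpd without either vehicle array or FGF15 replicate 2 (0.092 to 0.11), and with FGF19 Cebpb was not called without vehicle replicate 1 (0.13). These contrasts between the hormones stand beside complement members whose falls were of like size with both, and no relation between them was tested.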

How the data were processed

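Liver RNA was measured on 6 arrays, 2 per group. The deposited values are signal intensity on a linear scale, 1 per probe set; the software behind them is not given in the sources used here. Their mean, trimmed by 2% at each end over all probe sets with controls included, was about 200.1 on every array. This shows from the values that arrays had been scaled to a common level.

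Probe sets were named through GEO's platform annotation: 20380 of 22690 had exactly 1 gene, and none was named from a probe set with several. Each gene was represented by its brightest probe set by mean log2 signal, and genes below the 25th percentile of all probe sets (a signal of about 14.0) were left out. Log2(signal + 32) of the 9692 genes left was fitted with limma 3.58.1 in R 4.3.3 (group means over all 6 arrays, eBayes with a trend, 3 residual and about 6.82 prior degrees of freedom), with Benjamini-Hochberg adjustment over all genes. With so few arrays precision is limited, and the standard error had a median of 0.13. Hormones were compared with vehicle and with each other. The script was tested on simulated data.

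Arrays were not treated as paired by replicate number: deviations of same-numbered arrays correlated at 0.081, -0.022 and 0.050. Such low values show little shared deviation, but they cannot tell whether same-numbered arrays were handled together. Alternatives changed the pseudocount, scaling, filter, choice of probe set, prior, samples and block. The text names every member; from each other pathway list up to 4 called genes per comparison by smallest p, and from each marker list up to 3. Members and lists were chosen with earlier results of these data known. Promoter sequences are from RefSeq. Python 3.11.15 and matplotlib 3.10.9 made the figures.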

Additional observations from a re-analysis of the deposited data

Results flagged for a closer look

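The effects of FGF19 and FGF15 were tested against each other (limma, FGF19 effect minus FGF15 effect on the log2 scale). Of the 33 members, 16 other complement genes, 22 other coagulation genes and 20 regulators measured, 12 differed by that test. Of all 9692 genes tested, 1.89% fell and 2.40% rose in it. Genes of other lists were not part of this count, and Tat (0.90), Saa3 (0.41) and Orm2 (-0.29) among them also differed. Among complement and coagulation members the 1 such gene was Mbl1 (-0.37), called in 9 of 17 alternatives. Of the other coagulation genes, Thbd differed by 0.53, Serpina10 by -0.43 and Mcfd2 by -0.27, called in 11, 15 and 6 of 17 alternatives. Without 1 array the call was lost for Mcfd2 in all 6 cases (adjusted p 0.051 to 0.16), for Thbd without FGF15 replicate 2, FGF19 replicate 1 or FGF19 replicate 2 (0.12 to 0.16), and for Serpina10 without FGF15 replicate 2 (0.065).

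Among transcription factors, Cebpa differed by -0.87, Cebpb by 0.71, Cebpd by 1.28, Dbp by -1.44, Nr1h4 (the bile acid receptor FXR) by -0.58, Onecut1 by -0.80, Foxa1 by -0.69 and Foxa3 by 0.39. Cebpa, Cebpb, Dbp and Foxa1 were called in all 17 alternatives, Cebpd and Nr1h4 in 16, Onecut1 in 14 and Foxa3 in 8. Onecut1 lost the call without FGF15 replicate 2 (adjusted p = 0.061) or FGF19 replicate 2 (0.071), and Foxa3 without any one of the FGF15 or FGF19 arrays (0.11 to 0.20). Onecut1, Foxa1 and Foxa3 were named after their values were seen.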

How the results depend on the processing

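The count of members that fell with FGF15, 12 as reported, was 7 after centring, 7 with a variance prior without trend, and 7 to 13 when 1 array was left out; Vtn and Klkb1 entered in some of these. With FGF19 the count, 17 as reported, was 7 after centring, 7 without the trend, 11 with no filter on low signals, and 7 to 15 with 1 array left out, where F2, Serpinc1 and C4bp entered in some. After centring 1 member rose with FGF19, against 0. The 1 member that fell in FGF19 against FGF15 became 0 with no filter, 0 with only the arrays compared, 0 without the trend, and 0 to 2 with 1 array left out; the 2 were F2 and Plg, without FGF19 replicate 2. Causes were not tested, beyond fewer arrays where 1 was left out. With the replicate number as a block, 12 members fell with FGF15 (Vtn in, Serpind1 out), 18 with FGF19 (Serpinc1 added) and 1 in FGF19 against FGF15, and 0 rose; the block is no evidence of pairing. Pseudocounts of 16 and 64 left the counts at 12, 17 and 1. No member's called direction reversed under any alternative tried. When an array was left out, its partner was assumed to vary like the other groups. With 2 arrays a group, falls of about 0.2 to 0.4 lie near the threshold.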

Other observations

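Acute phase proteins are plasma proteins whose genes respond to inflammation, and 20 were measured. With FGF15, 7 were called lower, 1 higher and 12 not called, and with FGF19, 9 lower, 2 higher and 9 not called, at medians of -0.19 and -0.36. The genes given here were named after their values were seen. Orm2, an acid glycoprotein, read 4075 and 4292 with vehicle, 1306 and 1233 with FGF15, and 1039 and 1019 with FGF19 (-1.70 and -1.99). Saa3, a serum amyloid gene, read 922 and 926 with vehicle, 225 and 224 with FGF15, and 330.4 and 289.9 with FGF19 (-1.90 and -1.48). Steap4, a metalloreductase, went the other way, at 1761 and 1672 with vehicle, 3423 and 3533 with FGF15, and 3938 and 4138 with FGF19 (1.01 and 1.22).

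Other cell markers were few. Of 3 neutrophil markers, 2 fell with FGF15 and 1 with FGF19, and their summed signal was 492 and 477 with vehicle, 228 and 234 with FGF15, and 384 and 448 with FGF19. Of 4 platelet markers, 0 fell with FGF15 and 1 with FGF19. Of 4 lymphocyte markers none was called by limma or had an unadjusted p under 0.05, and of 2 erythroid markers 1 rose with FGF19.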
